A study of Mus musculus with 22 samples.

Results

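The chaperones and ER folding enzymes described here are the 88 genes of the Ribo-Seq tables, out of 23081, whose symbol marks an HSP70 or HSP110 protein (Hspa and Hsph1), an HSP90 protein, a small heat shock protein (Hspb), the mitochondrial chaperonin (Hspd1, Hspe1), a DNAJ protein of the A, B or C class, a subunit of the CCT/TRiC chaperonin (Tcp1 and Cct) or a protein disulfide isomerase (Pdia). They were chosen by name alone, without use of any measured value, and carry 87 distinct symbols, since Hspa14 stands for 2 Ensembl genes. Of the 88 genes, 83 are also in the RNA-Seq files. Hspa1a, Hspa1b, Hspb1, Dnajb3 and Dnajc21 have footprint values only.

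HSP70 proteins bind exposed hydrophobic stretches of unfolded polypeptides in cycles of ATP hydrolysis. DNAJ proteins deliver substrates and stimulate that hydrolysis, and HSP90 acts later on kinases, receptors and other clients. CCT/TRiC is a ring-shaped complex built from distinct subunits in fixed proportion, which folds actin and tubulin. In the endoplasmic reticulum (ER), Hspa5 (BiP), Hsp90b1 (GRP94) and the disulfide isomerases fold secreted and membrane proteins and are known targets of the unfolded protein response. Heat shock factor drives the cytosolic and mitochondrial heat shock genes.

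The cells were neural stem cells (NSCs) grown from the cortex of mouse embryos of the 129SvJae strain, in N2 medium with EGF, bFGF and laminin. The tet lines carried the reverse tetracycline transactivator m2rtTA in the Rosa26 locus. In tetO-Msi1 and tetO-Msi2 cells it drove a doxycycline (Dox) inducible cDNA of the RNA-binding protein Musashi-1 or Musashi-2, placed in the Col1A1 locus, and KH2 cells lacked the cDNA. Dox was given at 1 µg/ml for 72 h. The floxed lines, C1 and C4, carried conditional alleles of both Msi1 and Msi2. C4 cells also carried a tamoxifen-inducible Cre, which 4-hydroxytamoxifen (4-OHT) activated over 48 h, and C1 cells lacked Cre and controlled for 4-OHT. RNA-Seq covered the 5 lines with and without treatment at E12.5, and untreated KH2 and untreated and Dox-treated tetO-Msi1 cells at E13.5. Ribo-Seq, which sequences the mRNA fragments held by ribosomes (footprints), was made from treated and untreated E12.5 cells of KH2, tetO-Msi1, C1 and C4. Each condition had 1 library of 1 line, except that untreated E13.5 tetO-Msi1 cells had 2 technical replicates, which were combined. Lines therefore served as the repeats, except in the Dox test of tetO-Msi1 cells, where the repeats were the E12.5 and E13.5 cells of that line. The spread between these libraries had only 1 to 4 residual degrees of freedom, and edgeR combined it with a spread shared over genes. In the Dox tests of tetO-Msi1 mRNA and of footprints, the p-values rest on the shared spread alone.

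The RNA-Seq libraries held 7889966 to 58435172 counted reads and the Ribo-Seq libraries 657288 to 6381242. The members took 1.68 to 2.59% of the RNA-Seq reads and 0.144 to 2.06% of the footprints. The lowest share was in the untreated KH2 library, where 66.7% of footprints lay on a single gene, Hes7. Over 66 members the technical replicates differed by a median of 0.04 on the log2 scale, and by 0.30 at most. Dox raised Msi1 mRNA from 128 to 709 in E12.5 tetO-Msi1 cells and Msi2 mRNA from 154 to 828 in tetO-Msi2 cells, and 4-OHT lowered Msi2 mRNA from 125 to 13.6 in C4 cells, while Msi1 mRNA in C4 cells was 29.9 before and 28.2 after. These and all levels below are TMM-scaled RPKM values, that is, reads per unit of length and of sequencing depth after scaling between libraries. The summed level of 7 neural stem markers was 13283 to 17295 in every RNA-Seq library, against 29.3 to 52.3 for neuronal markers and less than that for microglial and endothelial markers. Single stem markers differed between lines within that sum. In untreated E12.5 cells Sox2 was at 1069 to 1422 in the tet lines and at 632 and 560 in C1 and C4. Nes was at 127 to 239 in the tet lines and at 479 and 474 in C1 and C4. The summed level of Gfap, Aqp4 and S100b, markers of astrocytes, was 31.6 to 109 in the tet lines of E12.5, 144 to 185 at E13.5 and 390 to 790 in the floxed lines. That of Olig2 and Pdgfra, markers of the oligodendrocyte lineage, was 446 to 616, 578 to 776 and 774 to 1057 in the same order. In bulk RNA, fewer cells of a type and less RNA per cell cannot be told apart.

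Short motifs in the promoters are shown first, because targets of the unfolded protein response and of heat shock factor are known for them. The windows searched ran from 250 bases before to 50 bases after each annotated transcript start of NCBIM37 (mm9), on both strands. The ER stress element, searched as CCAAT and CCACG with any 9 bases between them, occurred in windows of 4 of the 88 members and of 30 of 22372 genes (0.134%). Its fixed letters are in capitals below, each line reading 5′ to 3′ along the strand that holds the match.
Hspa5, chr2:34627545-34627563, gene strand: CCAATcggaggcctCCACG
Hsp90b1, chr10:86168383-86168401, gene strand: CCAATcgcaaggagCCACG
Hsp90b1, chr10:86168278-86168296, opposite strand: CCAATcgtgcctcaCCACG
Dnajc3, chr14:119337049-119337067, gene strand: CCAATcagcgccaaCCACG
Pdia6, chr12:17273297-17273315, gene strand: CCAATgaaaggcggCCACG

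The heat shock element, searched as GAA, TTC and GAA with any 2 bases after each of the first blocks, occurred in windows of 8 of the 88 members and of 199 of the 22372 genes (0.89%). Besides the members printed below, Dnajb6 and Dnajc1 held it. Hspd1 and Hspe1, which encode the ring and the lid of the mitochondrial chaperonin, face away from each other on chromosome 1 and share a pair of overlapping matches, of which 1 is printed. The capitals again mark the fixed letters.
Hspa8, chr9:40609304-40609316, opposite strand: GAAccTTCcaGAA
Hspa8, chr9:40609146-40609158, gene strand: GAAagTTCcaGAA
Hsph1, chr5:150438863-150438875, opposite strand: GAActTTCcaGAA
Hspd1 and Hspe1, chr1:55144908-55144920, strand of Hspe1: GAAccTTCcgGAA
Hsp90aa1, chr12:111934597-111934609, opposite strand: GAAccTTCcgGAA
Cct4, chr11:22890645-22890657, opposite strand: GAAccTTCcaGAA
A match describes the letters only, and no binding was measured.

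The levels in untreated cells of E12.5 set the scale. Of the members in the RNA-Seq files, 69 had a mean of at least 1 over the 5 lines, as did 12385 genes in all. Hsp90ab1, the constitutive cytosolic HSP90, had the highest mean mRNA level (3395), at percentile 99.9 of those genes. It was followed by Hsp90b1 (936), Pdia3 (930), Tcp1 (853) and Hspa5 (852). The lowest members above that limit were Cct6b, a testis-type relative of Cct6a, at 1.39, and the muscle-type Hspb3 at 2.55. In footprints, the constitutive HSP70 Hspa8 ranked first (2036), before Hsp90ab1 (1289), Hspa5 (661), Pdia3 (590) and the mitochondrial co-chaperonin Hspe1 (519). Dnajb6, a DNAJ protein that keeps aggregation-prone proteins soluble, was listed at 0 in every RNA-Seq library, although its footprint level was 49.2 to 221. The order by mRNA and the order by footprints thus differed, and the reads that each assay assigns to a member depend on the exons counted, which matched for 46 of the 83 members.

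**Figure D1:**
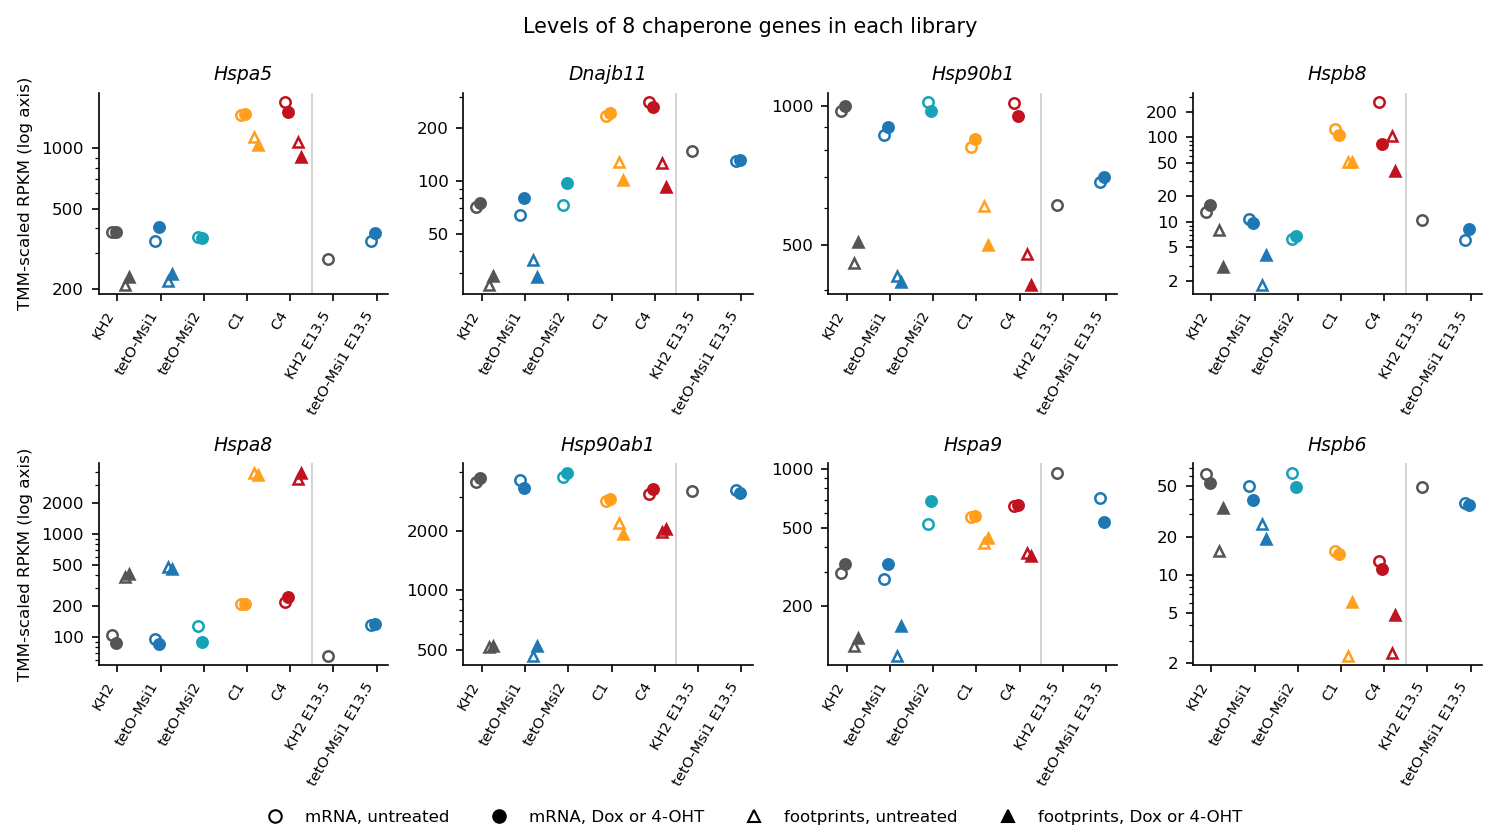
Level (TMM-scaled RPKM, log axis) of 8 members by line and stage, 1 panel a gene; circles show mRNA, triangles footprints, open symbols untreated and filled symbols Dox- or 4-OHT-treated cells, each symbol 1 library. Open and filled symbols of a line lie close together for 6 of the 8 genes, with wider gaps for Hspb8 (mRNA in C4, footprints in C4, KH2 and tetO-Msi1) and for Hspb6 footprints. C1 and C4 stand apart from the tet lines in Hspa5, Dnajb11, Hspa8, Hspb8 and Hspb6, and in the footprints of Hsp90ab1 and Hspa9.

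The floxed and tet lines were compared without treatment at E12.5, in 2 against 3 lines for mRNA and 2 against 2 for footprints. Hspa5 with its co-chaperones Dnajb11 and Dnajc3, the HSP110 genes Hsph1 and Hspa4 and the mitochondrial chaperonin were higher in the floxed lines in both assays, the ring subunits of CCT/TRiC were higher in footprints, and Hspb6 was lower in both assays. Over all 12211 genes tested, 66.3% passed the threshold in mRNA (33% higher and 33.3% lower) with edgeR's quasi-likelihood test, and 51 of 69 members did, 36 higher and 15 lower. The share of members that passed, 73.9%, was near that of all genes, and 52.2% were higher and 21.7% lower. In footprints 31.7% of 12097 genes passed (16.1% higher and 15.5% lower), and 34 of 72 members did, 33 higher and 1 lower. The members' median log2 difference was 0.40 in mRNA and 0.87 in footprints, against 0.00 and 0.03 for all genes. The tet and floxed lines differ in their alleles, have their Ribo-Seq values in separate deposited tables, and differ in the share of reads assigned to genes (14.9 to 15.8% of the RNA-Seq reads in the tet lines of E12.5 and 32.1 to 34.1% in the floxed lines), so the lines and their sets of libraries cannot be told apart. The summed levels of the astrocyte and of the oligodendrocyte lineage markers given above were also higher in every floxed than in every tet library of E12.5. Pdgfra by itself overlapped, at 28.8 in C1 and 51.1 in C4 cells against 45.7, 56.5 and 18.9 in untreated KH2, tetO-Msi1 and tetO-Msi2 cells. The part of these markers was not tested.

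Hspa5, the HSP70 protein of the ER (chr2:34627490-34632051, plus strand), had an mRNA level of 383 in KH2, 347 in tetO-Msi1 and 361 in tetO-Msi2 cells, against 1469 in C1 and 1702 in C4 cells. Its footprint level was 208 in KH2, 219 in tetO-Msi1, 1136 in C1 and 1079 in C4 cells. The groups did not overlap in either assay, nor did they among treated cells. The log2 difference, floxed minus tet lines, was 2.11 ± 0.11 in mRNA (SE, 2 against 3 lines, adjusted p = 2.86e-05) and 2.27 ± 0.27 in footprints (2 against 2 lines, adjusted p = 0.00011). Dnajb11, which delivers substrates to Hspa5, had mRNA levels of 63.9 to 73.3 in the tet lines, 235 in C1 and 280 in C4 cells. Dnajc3, an ER co-chaperone known to restrain the kinase PERK, was at 43.0 to 45.0 in the tet lines, 117 in C1 and 138 in C4 cells. Both genes were therefore high in the same lines as Hspa5, with log2 differences of 1.87 ± 0.11 and 1.51 ± 0.11 in mRNA and of 1.93 ± 0.25 and 1.75 ± 0.25 in footprints.

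Hsp90b1, the HSP90 protein of the ER, did not follow Hspa5. Its mRNA level was 972, 862 and 1018 in KH2, tetO-Msi1 and tetO-Msi2 cells and 814 and 1015 in C1 and C4 cells, so the groups overlapped. The log2 difference was -0.07 ± 0.14 in mRNA (adjusted p = 0.648) and 0.19 ± 0.23 in footprints (adjusted p = 0.57). Hsp90b1 holds 2 of the ER stress elements printed above and Hspa5 holds 1, and the part of these elements was not tested. Among the disulfide isomerases, which form and reshuffle disulfide bonds, Pdia4 mRNA was 227 to 256 in the tet lines and 340 and 396 in C1 and C4 cells (log2 difference 0.60 ± 0.11, adjusted p = 0.0025), while its footprints differed by 0.37 ± 0.22 and did not pass (adjusted p = 0.224). Pdia3, which works on glycoproteins, differed by 0.46 ± 0.12 in mRNA (adjusted p = 0.0135) and by 0.96 ± 0.22 in footprints (adjusted p = 0.0064). Pdia6 differed by 0.53 ± 0.18 in mRNA (adjusted p = 0.0352) and by 0.88 ± 0.22 in footprints (adjusted p = 0.0097). The last 2 genes rested on single lines. Without C4 the mRNA difference was 0.34 for Pdia3 (adjusted p = 0.095) and 0.21 for Pdia6 (0.22), without KH2 and without tetO-Msi1 it was 0.54 (0.083) and 0.48 (0.10) for Pdia6. Their footprint calls were lost without KH2, at 0.86 for Pdia3 (0.077) and 0.87 for Pdia6 (0.11), and that of Pdia6 also without tetO-Msi1 (0.88, 0.11). Dnajb9, a DNAJ protein of the ER induced by IRE1 signaling, had mRNA levels of 50.1 to 67.5 in the tet lines and 48.6 and 53.3 in the floxed lines and did not pass the test (-0.29, adjusted p = 0.14).

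Of 17 ER chaperones and folding enzymes tested, 9 were higher and 3 lower in the mRNA of the floxed lines, with a median log2 difference of 0.28 against 0.00 for all genes; the 12 that passed compare with 66.3% of all genes. Of the 10 members that are known targets of the unfolded protein response, 6 were higher and 0 lower, where 33% of all genes were higher and 33.3% lower. In footprints 6 of the 17 were higher and 0 lower, where 16.1% of all genes were higher. Dnajc25, a membrane-bound DNAJ protein, had the largest footprint difference among them (3.54 ± 0.69, adjusted p = 0.0026). It rested on only 1 footprint read in KH2 and 3 in tetO-Msi1 cells, against 100 in C1 and 39 in C4 cells. Its mRNA levels were 8.26 to 14.7 in the tet lines and 41.9 and 42.1 in C1 and C4 cells. Pdia5 was among those lower in mRNA (-0.51, adjusted p = 0.0256), a call lost without KH2 (adjusted p = 0.059), without C1 (0.18) and without C4 (0.063). Dnajc18 was lower in mRNA (log2 difference -0.92 ± 0.11, adjusted p = 0.0005) and did not pass in footprints (-0.17 ± 0.23). With untreated E13.5 libraries of KH2 and tetO-Msi1 cells in place of the E12.5 tet lines, 30 of the 51 members called in mRNA still passed in the same direction. A further 13 kept their sign without passing, and 5 changed sign. Hspa5 then differed by 2.30, Dnajc3 by 1.02, Dnajb11 by 0.86 and Hsp90b1 by 0.45 (adjusted p = 0.042), while Pdia4 (0.28, adjusted p = 0.085) and Pdia6 (0.47, 0.083) no longer passed.

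**Figure D2:**
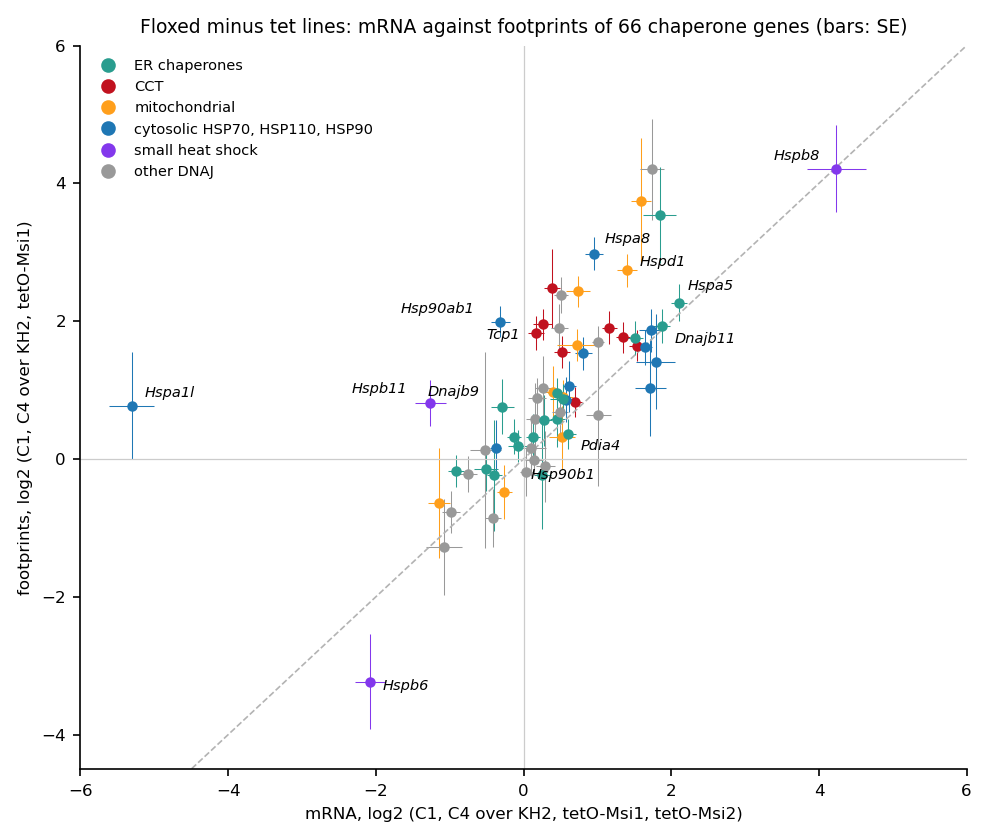
Log2 difference between untreated floxed lines (C1, C4) and untreated tet lines of E12.5 in mRNA (x axis) and footprints (y axis) for 66 members, coloured by group, with bars of 1 SE and a dashed line of equal change. Hspa5, Dnajb11 and Hspa4 lie near the line, while Hsp90ab1, Hspa8, Tcp1 and Cct2 lie above it.

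Of 11 cytosolic HSP70, HSP110 and HSP90 genes tested in mRNA, 8 were higher and 2 lower in the floxed lines (33% and 33.3% of all genes), and of 13 tested in footprints, 6 were higher and 0 lower (16.1% and 15.5% of all genes). The HSP110 proteins recharge HSP70 with ATP. Hsph1 mRNA was 67.1, 72.8 and 51.8 in KH2, tetO-Msi1 and tetO-Msi2 cells and 216 and 211 in C1 and C4 cells (1.72 ± 0.15, adjusted p = 0.000135). Hspa4, of the same class, was at 170 to 189 in the tet lines and at 532 and 594 in the floxed lines (1.64 ± 0.10). Footprints of both were higher by about as much, by 1.86 ± 0.31 and 1.62 ± 0.25, while Hspa4l, the third of the class, was lower in mRNA (log2 difference -0.38), a call lost without C1 (adjusted p = 0.067) and without C4 (0.061). Hsp90aa1, the stress-inducible HSP90, was at 73.1 to 90.6 in the mRNA of the tet lines and at 141 and 158 in C1 and C4 cells (0.81 ± 0.12, adjusted p = 0.00111), and its footprints differed by 1.53 ± 0.24. Of the stress-inducible targets of heat shock factor, 7 of 10 were higher and 1 lower in mRNA, and 9 of 13 higher and 0 lower in footprints.

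Hspa8 and Hsp90ab1 differed more in footprints than in mRNA. Hspa8 mRNA was 104, 97.3 and 128 in KH2, tetO-Msi1 and tetO-Msi2 cells and 211 and 219 in C1 and C4 cells (0.95 ± 0.12, adjusted p = 0.000678). Its footprint level was 380 in KH2 and 475 in tetO-Msi1 cells, against 3909 in C1 and 3381 in C4 cells (2.98 ± 0.24, adjusted p = 1.56e-05). For Hsp90ab1 (chr17:45704724-45710220, minus strand), the mRNA level was 3565, 3647 and 3787 in the tet lines and lower, at 2866 and 3108, in C1 and C4 cells, a difference that did not pass the test (-0.31 ± 0.13, adjusted p = 0.0633). Its footprint level was 517 and 466 in KH2 and tetO-Msi1 cells and 2200 and 1973 in C1 and C4 cells (1.99 ± 0.22, adjusted p = 7.7e-05). The groups of both genes were thus separate in footprints, with the floxed lines high. Among the DNAJA proteins, which serve HSP70 in the cytosol, Dnaja1 showed the same order, with mRNA levels of 35.1 to 37.6 and of 53.6 and 51.4, and footprint levels of 73.5 and 119 against 559 and 562. Dnajb1, the major heat-inducible DNAJ protein, did not pass in mRNA (0.16, adjusted p = 0.28) or footprints (0.58, adjusted p = 0.44).

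Hspa1l, an HSP70 gene known from the testis (chr17:35109648-35116229, plus strand), had the largest fall in mRNA among the members. Its mRNA level was 8.44 in KH2, 7.29 in tetO-Msi1 and 6.07 in tetO-Msi2 cells at E12.5, 0.15 in C1 and 0.224 in C4 cells, and 0.19 to 0.312 at E13.5. The log2 difference between floxed and tet lines was -5.30 ± 0.30 (adjusted p = 3.57e-05), whereas footprints gave 0.77 ± 0.78 (adjusted p = 0.48) on levels of 0.907 to 2.42. The tet libraries of E12.5 therefore stood apart from every other RNA-Seq library. Hspa1a and Hspa1b, the stress-inducible HSP70 genes, are near-identical copies and had 107 and 108 footprint reads in untreated C1 cells, 47 and 47 in C4, 22 and 21 in tetO-Msi1 and 12 and 12 in KH2 cells, so their values cannot be separated.

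In CCT/TRiC the gap between the mRNA and the footprint difference was present for some subunits and not for others. In footprints all 8 subunits tested were higher in the floxed lines (16.1% of all genes), by 0.83 (Cct7) to 2.47 (Cct4) on the log2 scale. In mRNA 6 of 9 tested were higher and 1, Cct6b, lower (33% and 33.3% of all genes). Tcp1, the alpha subunit, had mRNA levels of 769, 777 and 877 in the tet lines and 878 and 962 in C1 and C4 cells, which did not pass (0.17, adjusted p = 0.191). Its footprint level was 144 and 139 in KH2 and tetO-Msi1 cells and 633 and 446 in C1 and C4 cells (1.83 ± 0.25, adjusted p = 0.00027). Cct2 followed the same course, with an mRNA difference of 0.26 (adjusted p = 0.114) and footprint levels of 116 and 114 against 509 and 448 (1.95 ± 0.23, adjusted p = 9.7e-05). Cct6a, by contrast, had mRNA levels of 293 to 348 in the tet lines and of 866 and 1000 in the floxed lines (1.54 ± 0.11, adjusted p = 7.01e-05), and its footprints differed by about as much (1.64 ± 0.22). Cct3 and Cct8 also differed in mRNA, by 1.35 and 1.16, and Cct5 and Cct7 less, by 0.52 and 0.69. The Cct4 and Cct7 values were the least secure. Cct4 differed by 0.39 in mRNA (adjusted p = 0.0198), a call lost without KH2 (0.059), without tetO-Msi1 (0.065) and without C4 (0.10), and its footprints rested on 8 reads in KH2 and 6 in tetO-Msi1 cells, without the latter of which the difference was 1.56 (adjusted p = 0.11). The Cct7 footprint call was lost without KH2 (0.79, adjusted p = 0.15) and without tetO-Msi1 (0.85, 0.13). With the E13.5 tet lines, Cct5 (0.30, adjusted p = 0.073) and Cct7 (0.14, 0.40) no longer passed in mRNA, and Tcp1 did (0.67).

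The subunits were also closer to each other in mRNA in the floxed lines. Across the 8 subunits of the ring, the coefficient of variation of the mRNA level was 36.0 to 41.7% in the 6 tet libraries of E12.5, 20.8 to 27.4% at E13.5 and 13.1 to 17.3% in the 4 floxed libraries. In untreated KH2 cells the range ran from 309 (Cct6a) to 769 (Tcp1), 2.49-fold, and in untreated C1 cells from 619 (Cct7) to 878 (Tcp1), 1.42-fold. For the 5 subunits whose exons matched between the files (Tcp1, Cct2, Cct6a, Cct7 and Cct8), the footprint level varied by 17.2 to 26.1% in the tet lines and by 14.8 to 20.3% in the floxed lines. The mRNA of the same 5 subunits varied by 41.1 to 46.6% in the tet lines of E12.5 and by 13.3 to 16.2% in the floxed lines. The ranges were thus apart in mRNA and overlapped in footprints. These coefficients are descriptions and were not tested.

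**Figure D3:**
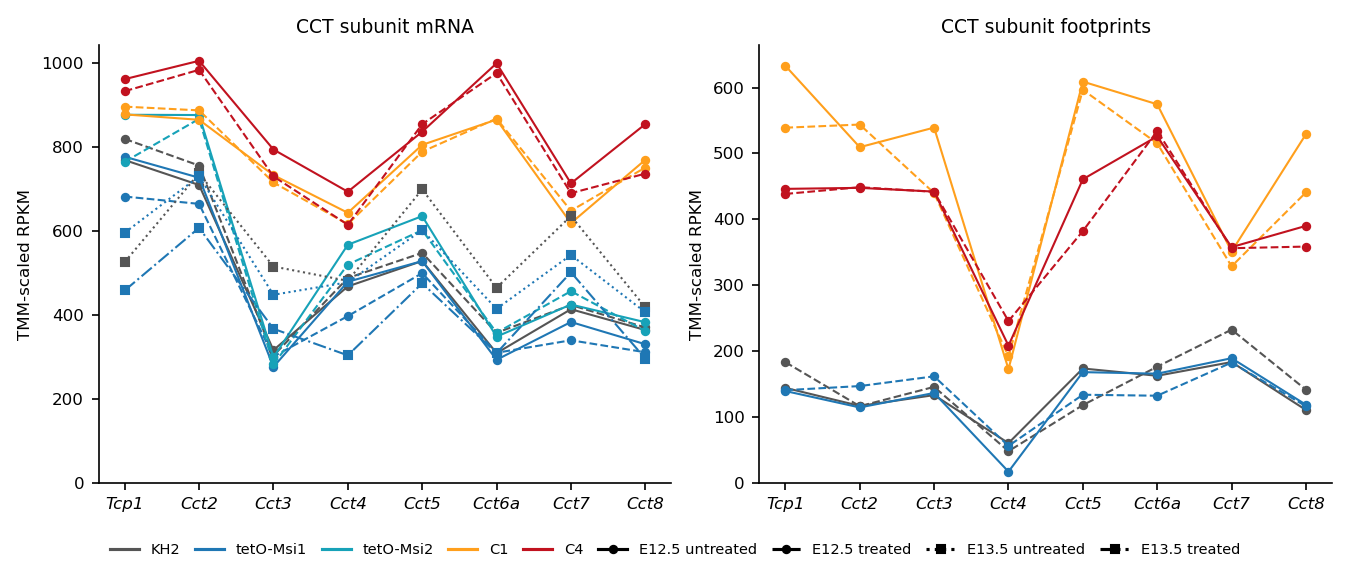
Level (TMM-scaled RPKM, linear axis from 0) of the 8 CCT/TRiC subunits in mRNA and in footprints, 1 line a library and 1 position a subunit. In mRNA the subunits spread widely in the tet lines of E12.5 and lie close together in C1 and C4, and in footprints all 8 are higher in C1 and C4.

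Of 10 mitochondrial chaperones tested in mRNA, 6 were higher and 2 lower in the floxed lines (33% and 33.3% of all genes). Of 9 tested in footprints, 5 were higher (16.1% of all genes). Hspd1 mRNA was 139, 127 and 161 in the tet lines and 340 and 422 in C1 and C4 cells (1.40 ± 0.14, adjusted p = 0.000204), and its footprint level was 118 and 90.8 against 713 and 758 (2.74 ± 0.24). Hspe1 mRNA was 132, 127 and 151 in the tet lines and 192 and 271 in the floxed lines (0.74 ± 0.17, adjusted p = 0.00733), with footprint levels of 157 and 149 against 887 and 882 (2.43 ± 0.22). Both chaperonin genes were higher in each floxed line than in each tet line, though with the E13.5 tet lines the Hspe1 mRNA difference turned to -0.26. Hspa9, the HSP70 protein of the mitochondrial matrix, was not uniform among the tet lines, at 296 in KH2, 274 in tetO-Msi1 and 523 in tetO-Msi2 cells, against 568 and 653 in C1 and C4 cells (0.73 ± 0.27, adjusted p = 0.0512). In footprints, for which tetO-Msi2 cells were not sequenced, it differed by 1.65 ± 0.23 (adjusted p = 0.00029). Dnajc11, of the mitochondrial outer membrane, was at 43.8 to 54.8 and at 147 and 161 in mRNA (1.59 ± 0.13), and Dnajc28 was lower, at 7.31 to 17.1 against 3.02 and 2.52 (-2.24 ± 0.38).

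The small heat shock proteins, which hold unfolded proteins without using ATP, moved in opposite directions. Of 4 tested in mRNA, Hspb8 was higher and Hspb3, Hspb6 and Hspb11, the last a protein of intraflagellar transport, lower in the floxed lines. Hspb8, which works with Bag3 in selective autophagy (chr5:116858500-116872873, minus strand), had mRNA levels of 12.9, 10.9 and 6.15 in KH2, tetO-Msi1 and tetO-Msi2 cells, 124 in C1 and 260 in C4 cells. Its footprint level was 8.04 and 1.77 in KH2 and tetO-Msi1 cells and 50.2 and 102 in C1 and C4 cells, on 5, 3, 266 and 155 reads. The groups were separate in both assays and C4 was the higher floxed line. The log2 difference was the highest of the members in mRNA, 4.24 ± 0.40 (adjusted p = 0.000178), and was 4.21 ± 0.63 in footprints. Hspb6, best known from muscle, was at 63.3, 50.8 and 64.5 in the tet lines and at 15.5 and 12.9 in C1 and C4 cells (-2.08 ± 0.21, adjusted p = 0.000229). Of the 72 members tested it was the only one lower in the footprints of the floxed lines (-3.23 ± 0.69, adjusted p = 0.0044), with 15.5 and 25.0 against 2.28 and 2.38. These levels rested on 8 reads in KH2, 35 in tetO-Msi1, 10 in C1 and 3 in C4 cells. The astrocyte marker Gfap was at 5.87, 5.37 and 0.0843 in the same tet libraries and at 186 and 478 in C1 and C4, and its part in the Hspb8 and Hspb6 values was not tested. Hspb1 had 0 footprint reads in untreated KH2 and tetO-Msi1 cells, 24 in C1 and 16 in C4 cells, and 0, 8, 4 and 0 reads in the treated cells of the same lines.

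The remaining DNAJ proteins were divided. Dnajc2, a ribosome-associated co-chaperone, was at 50.9 to 60.2 in the mRNA of the tet lines and at 194 and 173 in C1 and C4 cells (1.74 ± 0.16). Dnajc4, Dnajc12 and Dnajb4 were lower in the floxed lines, with log2 differences of -1.14, -1.08 and -0.98, of which the Dnajc12 call was lost without C1 (adjusted p = 0.055). Of the 66 members tested in both assays, 26 were higher in both (39.4%, against 13.2% of the 10447 genes tested in both), and 10 were higher in mRNA without passing in footprints (15.2% against 21%). A further 5 were higher in footprints without passing in mRNA (7.58% against 2.35%), 11 were lower in mRNA without passing in footprints (16.7% against 19.2%), and 13 passed in neither (19.7% against 28.4%). The remaining member, Hspb6, was lower in both assays (1.52% against 12.1%), and 0 were lower in mRNA and higher in footprints (0.737% of genes).

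Translation efficiency (TE) compares footprints with mRNA of the same gene. The test between floxed and tet lines took the RNA-Seq and Ribo-Seq libraries of a line as independent, without pairing them. Relative to all genes, 13 of 66 members had a higher TE in the floxed than in the tet lines and 0 a lower TE, where 3.97% of 10542 genes were higher and 4.12% lower (8.08% in either direction). They were Hsp90ab1, Hspa8, Hspa1l, Dnaja1, Hspe1, Hspd1, Hspb11, Dnajc5, Dnajc18 and the CCT/TRiC subunits Tcp1, Cct2, Cct4 and Cct5. Of these, only Hspa1l, Hspe1, Dnajc18, Tcp1 and Cct2 had matching exons in both assays. For Hsp90ab1, footprints were counted on 1 exon of 147 bases and mRNA on 1775 bases. Hsp90ab1, whose log2 TE relative to the median gene was -1.58 in KH2, -1.79 in tetO-Msi1, 0.73 in C1 and 0.46 in C4 cells, differed by 2.32 ± 0.25 (adjusted p = 0.000494). For Tcp1 the relative TE was -1.21 and -1.31 in KH2 and tetO-Msi1 and 0.64 and 0.01 in C1 and C4 cells (1.63 ± 0.26, adjusted p = 0.00524). Hspa5 was at 0.32 and 0.52 in the tet and 0.74 and 0.46 in the floxed lines, so the groups overlapped, and it did not pass (0.20 ± 0.22, adjusted p = 0.61). Dnajb11, Hspa4 and Cct6a did not pass either, with differences of 0.03, 0.02 and 0.06. Of the known targets of the unfolded protein response 0 of 10 passed, of the ER list 1 of 17, of the CCT/TRiC subunits 4 of 8 and of the targets of heat shock factor 5 of 10. The calls depended on single lines, while the values of Hsp90ab1, Cct2 and Tcp1 moved little. Without KH2, edgeR called 0 members (13 at an unadjusted p under 0.05), with Hsp90ab1 at 2.41 (adjusted p = 0.06), Cct2 at 1.66 and Tcp1 at 1.67. Without tetO-Msi1 only Dnaja1 and Hspa8 still passed, and among treated cells 9 of the 13 did.

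Several of these genes have many processed copies in the genome, and a read that fits more than 1 place may be dropped or split in counting. Of the 88 members, 33 share at least 1 coding 32-base word with another place in NCBIM37, 22 share at least 10% of their words and 9 at least 50%. The share was 94.4% for Dnaja1, 91.3% for Hsp90aa1, 91.0% for Hspa8, 82.7% for Hspe1, 78.9% for Hspd1 and 19.2% for Hsp90ab1. It was 3.52% for Tcp1, 0.0634% for Cct2 and 0 for Cct5, Hspb11, Hspa5, Dnajb11 and Hspb8. A higher TE was called for 6 of 17 members with at least 10% of words elsewhere (median log2 difference 0.70) and for 7 of 49 below that (0.28). In footprints the medians of the same 2 classes were 1.41 and 0.81, and in mRNA 0.69 and 0.29. The members with copies thus had the higher medians in all 3 measures, and the part of the copies in the differences was not tested.

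**Figure D4:**
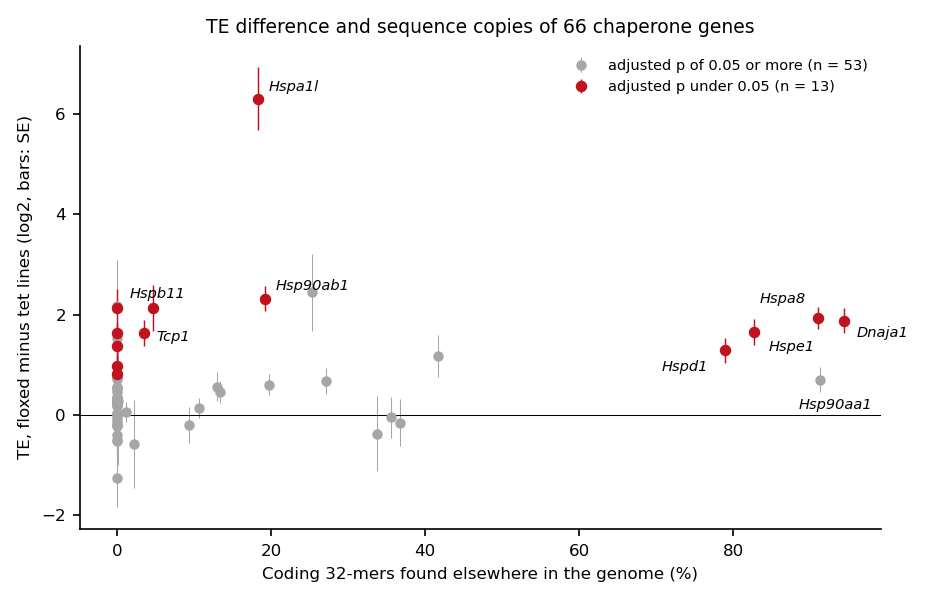
Log2 TE difference between floxed and tet lines (y axis) against the percentage of coding 32-base words found elsewhere in the genome (x axis) for 66 members; the 13 members past the threshold are red. Members past the threshold lie at both ends of the x axis, with Dnaja1 and Hspa8 above 90% and Tcp1, Cct2 and Cct5 below 4%.

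Between stages, untreated KH2 and tetO-Msi1 cells of E13.5 were compared with those of E12.5. Of 69 members tested, 23 were higher and 16 lower at E13.5, against 50.8% of 11893 genes in either direction (25.6% higher and 25.2% lower), so the members' share of 56.5% was near that of all genes. Hspa9 rose from 296 to 963 in KH2 and from 274 to 713 in tetO-Msi1 cells (1.53 ± 0.12, adjusted p = 3.23e-06). Hspe1 rose from 132 to 299 and from 127 to 246 (1.05 ± 0.13, adjusted p = 9.38e-05), and Hspd1 from 139 to 241 and from 127 to 245 (0.86 ± 0.10, adjusted p = 8.7e-05). In each case both lines of E13.5 lay above both of E12.5. Of the 10 mitochondrial chaperones tested, 5 were higher and 2 lower. Of 9 CCT/TRiC subunits 4 were higher and 2 lower, of 11 cytosolic HSP70, HSP110 and HSP90 genes 4 were higher and 3 lower, and of 4 small heat shock proteins 0 were higher and 2 lower.

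Of 17 ER genes tested between the stages, 6 were higher and 4 lower at E13.5, where 25.6% of all genes were higher and 25.2% lower. Dnajb11 rose from 71.4 to 147 in KH2 and from 63.9 to 129 in tetO-Msi1 cells (1.02 ± 0.11, adjusted p = 4.69e-05), while Dnajb9 fell from 67.5 to 18.6 and from 66.1 to 24.0 (-1.65 ± 0.15, adjusted p = 1.3e-05). Hsp90b1 was also lower, at 609 and 686 against 972 and 862 (-0.50 ± 0.11, adjusted p = 0.0042), although this call was lost without either E12.5 library (adjusted p = 0.15 without KH2 and 0.062 without tetO-Msi1). Hspa5 was at 282 and 346 against 383 and 347 and did not pass (-0.23 ± 0.12, adjusted p = 0.14). Other members that fell were Hspa1l (-5.10), Hspb3 (-4.14), Dnajc28 (-1.43) and Hspa2 (-1.19), and others that rose were Hspa4 (0.80) and Cct3 (0.70), the last of which was not called without the E12.5 tetO-Msi1 library (0.58, adjusted p = 0.079). Leaving out 1 library lowered the number of members called to 16 (without KH2 of E12.5) or 10 (without tetO-Msi1 of E12.5). The share of reads assigned to genes was at least 28.2% at E13.5, so stage and set of libraries cannot be told apart, and the E12.5 libraries of these lines also entered the comparison with the floxed lines.

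**Figure D5:**
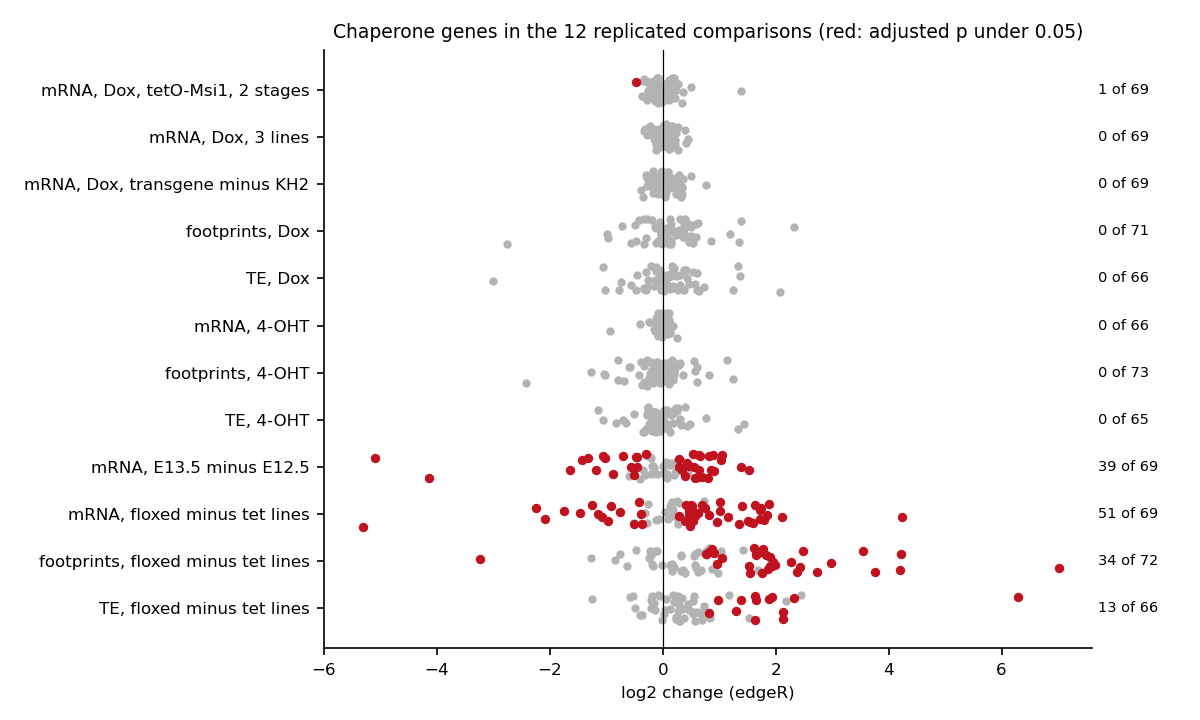
Log2 change of each member tested in each of the 12 comparisons, 1 point a member, red where the adjusted p was under 0.05, with the number called and tested at the right. Red points fill the comparisons between stages and between lines, while the Dox and 4-OHT comparisons hold 1 red point, Cct4.

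Dox and the Msi1 or Msi2 transgenes left few marks on these genes. In tetO-Msi1 cells, with E12.5 and E13.5 as repeats, 1 of 69 members passed, against 3.6% of 11938 genes. This was Cct4, whose mRNA went from 479 to 397 at E12.5 and from 478 to 303 at E13.5 (-0.47 ± 0.15, adjusted p = 0.0496), while it was 468 and 488 in KH2 and 567 and 520 in tetO-Msi2 cells. The call was not made by DESeq2 (adjusted p = 0.23), which called 0 members, and was lost without any 1 of the 4 libraries (-0.27 without Dox-treated cells of E13.5, adjusted p = 1). The other CCT/TRiC subunits stayed under the threshold, Tcp1 at -0.29 ± 0.15 (adjusted p = 0.34), Cct8 at -0.28 ± 0.15 (0.39) and Cct2 at -0.20 ± 0.15 (0.58). Over KH2, tetO-Msi1 and tetO-Msi2 at E12.5, edgeR called 0 of 69 members for Dox, against 0.451% of 11969 genes, with 12 members at an unadjusted p under 0.05 and 0 called by DESeq2. The lowest p among them was that of Hspa8 (104 to 87.6 in KH2, 97.3 to 86.4 in tetO-Msi1 and 128 to 89.2 in tetO-Msi2 cells, -0.32 ± 0.08, adjusted p = 0.12), which was lower with Dox in 3 of 3 lines. Without KH2 its adjusted p was 0.044 and that of Hspa9 0.029 (0.33), and without tetO-Msi1 that of Hspa8 was 0.024 (-0.38). For the response of transgenic lines beyond that of KH2, edgeR called 0 of 69 members, against 0.167% of genes, with 2 at an unadjusted p under 0.05 (Dnajc13 and Tcp1, named after their values were seen) and 0 by DESeq2.

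By pair, a 1.5-fold limit on deposited RPKM values was passed by 0 members in KH2 (0.944% of all genes compared), tetO-Msi1 of E12.5 (3.38%) and tetO-Msi2 cells (3.08%). In E13.5 tetO-Msi1 cells, 2 of 66 members passed (8.22% of genes), Dnajb5 from 13.4 to 21.0 and Hspa2 from 4.21 to 6.63 RPKM, each with 1 library per arm and no replicate check. In footprints of KH2 and tetO-Msi1 cells, edgeR called 0 of 71 members for Dox, against 0.633% of 11526 genes, with 3 at an unadjusted p under 0.05 and 0 by DESeq2. In TE it called 0 of 66, against 0.0791% of 10111 genes, again with 3 at an unadjusted p under 0.05 and 0 by DESeq2. Hspa5 stayed at -0.04 ± 0.17 in TE and Hsp90ab1 at 0.08 ± 0.26. By pair, a 3-fold TE limit was passed by 0 of 52 members in KH2 (1.1% of genes) and by 2 of 53 in tetO-Msi1 cells (1.25%), Cct4 and Dnaja4, with 6 and 6 and with 6 and 8 footprint reads before and after Dox, which is too few to read a change from.

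With 4-OHT in C1 and C4 cells, edgeR called 0 of 66 members in mRNA, against 5.5% of 11626 genes, with 6 at an unadjusted p under 0.05 and 0 by DESeq2. Hspb8 had the largest value, going from 124 to 105 in C1 cells and from 260 to 82.8 in C4 cells (-0.94 ± 0.26, adjusted p = 0.076). By pair it was the 1 of 65 members past 1.5-fold in C4 cells (5.97% of genes), from 82.2 to 27.6 deposited RPKM, a log2 change of -1.56 with a counting interval of -1.63 to -1.49, and the change in C1 cells was -0.23 (-0.31 to -0.16). In C1 cells 0 of 65 members passed (1.43% of genes). Hspb8 was thus lower with 4-OHT in both lines and more so in C4. The difference between the lines was not tested, since each had 1 library per arm. Gfap went from 478 to 248 in the same C4 libraries and from 186 to 173 in C1, and its part was not tested. Hspa5 (-0.07 ± 0.06), Hsp90ab1 (0.06 ± 0.05) and Tcp1 (0.00 ± 0.06) stayed close to 0.

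In footprints, 4-OHT gave 0 of 73 members by edgeR, against 0.934% of 12426 genes, with 4 at an unadjusted p under 0.05 and 0 by DESeq2. Hspb8 footprints were at 50.2 and 51.2 in C1 and at 102 and 40.1 in C4 cells before and after 4-OHT (-0.60 ± 0.31, adjusted p = 0.71). In TE edgeR called 0 of 65, against 0% of 10490 genes, with 4 at an unadjusted p under 0.05 and 0 by DESeq2. By pair, 34 of 63 members were at least 3-fold lower in TE in C1 cells, as were 37.6% of all genes (37.7% in either direction). The median over all genes in that pair was -1.46 on the log2 scale, and 0 members passed once it was subtracted. In C4 cells, 1 of 61 passed (2.43% of genes), Dnajc12, on 12 and 44 footprint reads.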

How the data were processed

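RNA-Seq and Ribo-Seq libraries were grouped by the line, treatment and stage in their labels. The authors deposited a read count per Ensembl gene, not normalized, and an RPKM, made with their own pipeline on mm9 (NCBIM37); the submitters' notes name Bowtie and TopHat, and versions are not given in the sources used here. For Ribo-Seq, the deposited counts and RPKM values cover coding exons. RNA was polyA-selected. Members and gene lists were chosen with earlier results of these data known.

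Counts were tested with edgeR (4.0.16, R 4.3.3) over all genes that reached 1 CPM in 2 or more libraries of each assay used, with TMM scaling, the quasi-likelihood test, Benjamini-Hochberg adjustment and a threshold of 0.05. Line, or stage for tetO-Msi1, was a block in the treatment and stage tests. TE was tested as the interaction of assay and condition. Between floxed and tet lines this test had no block for line. The footprint test of floxed against tet lines, and the runs on treated cells and on E13.5 tet lines, were chosen after seeing the data. Levels are counts per kilobase of the deposited length, scaled by TMM. By pair, 0.5 was added to deposited RPKM values, with a mean of at least 1 for mRNA and more than 5 reads in every library for TE, and intervals are 95% and cover counting error only. Members named in the text were those of greatest known role, those past a threshold with the largest changes, up to 10 in each direction, and the highest and lowest levels; others were chosen after their values were seen, among them Pdia5, Hspa4l, Dnajb6 and the members given only for a setting. Coding words and promoter windows came from NCBIM37 with the GENCODE annotation of that build. DESeq2 (1.42.0) was the other tool. The tests were checked on simulated counts with the same spread for every gene and no background differences between lines. That check does not show how the tests behave with the spreads of these libraries. Python 3.11.15, pandas 2.3.3, numpy 2.4.6 and matplotlib 3.10.9 were used.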

Additional observations from a re-analysis of the deposited data

How the results depend on the processing

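The labels number no replicates across groups. Treated and untreated cells of a line or stage were paired, and this pairing was the block of the tests described. The labels also pair the RNA-Seq with the Ribo-Seq library of a line, a pairing that the TE test of floxed against tet lines did not use. The single member called for Dox in tetO-Msi1 cells became 0 with RLE size factors, DESeq2, no stage block or technical replicate 1 alone, and 0 without any 1 library. For Dox at E12.5, 0 members became 3 without the low-count filter (Hspa9, Hspa8 and Dnajb2) and 0 to 2 with 1 line left out. For 4-OHT mRNA, 0 became 3 without that filter: Hspb8 (-0.94, adjusted p = 2.75e-06), Dnajc9 (0.26) and Dnajb2 (-0.39). Between stages, 10 to 36 members were called with 1 library left out, where 39 were called with all. Between floxed and tet lines, 41 to 56 were called in mRNA, 27 to 38 in footprints and 0 to 18 in TE with 1 line left out; 23 of the 51 mRNA calls, 23 of the 34 footprint calls and 0 of the 13 TE calls were made in every alternative. A lone library left in an arm was assumed to vary like the others, and the fits with 1 library left out had no block. With tet lines of E13.5, Hspe1 (-0.26), Dnajb4 (0.0186), Hspa4l (0.0507), Dnaja3 (-0.0267) and Dnajb12 (-0.14) changed sign in mRNA, and Hspb1 footprints did with treated libraries (-2.49); the cause was not tested. By pair, with no minimum RPKM 1 member passed in tetO-Msi1 cells of E12.5, tetO-Msi2 and C1 cells and 2 in C4 cells; tetO-Msi1 of E13.5 gave 1 after centring and 0 with a pseudocount of 2. For TE, 0 passed in tetO-Msi1 and C4 cells with more than 20 reads and 0 in C1 cells after centring. The test beyond KH2 with 1 line left out could not be fitted.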

Other observations

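Other genes of the same pathways, which the naming rule does not take in, were also compared between the floxed and tet lines. Of 30 other ER folding and unfolded protein response genes tested, 11 were higher and 10 lower in the mRNA of the floxed lines, with a median log2 difference of 0.01. These counts were near the shares of all genes, 33% higher and 33.3% lower. Creld2 (2.16), the ER HSP110 protein Hyou1 (1.51) and the secreted ER protein Manf (1.45) were higher, and the transcription factor Xbp1 lay between the last pair. The ER oxidase Ero1l (-2.49), the Hspa5 nucleotide exchange factor Sil1 (-1.67), the collagen chaperone Serpinh1 (-1.48) and the stress-induced transcription factor Ddit3 (-1.20) were lower. The list thus held members on both sides, as all genes did, although Hspa5 was higher. In footprints 11 of 29 were higher, among them Manf (2.24) and Syvn1 (2.10), and 5 lower, Edem1 (-1.89), Ero1l (-1.73), Serpinh1 (-1.39), Edem2 (-1.37) and Sil1 (-1.31). Over all genes, 16.1% were higher and 15.5% lower in footprints.

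Of 28 other heat shock regulators and co-chaperones, 15 were higher and 3 lower in the mRNA of the floxed lines (33% and 33.3% of all genes). Fkbp5, a co-chaperone of HSP90 and steroid receptors, was highest (2.33) and Hscb was lower (-1.41). In footprints 14 of 29 were higher and 0 lower (16.1% and 15.5% of all genes). Among the higher were Fkbp5 (2.76), the prefoldin subunit Pfdn4 (2.20) and St13 (2.16). In TE 6 of 28 were higher (3.97% of all genes). Among them were St13 (2.13), an HSP70 partner, and Pfdn1 (1.64) and Pfdn5 (1.25) of prefoldin, which passes actin and tubulin to CCT/TRiC.

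Between stages, 11 of 30 ER genes were higher at E13.5, among them Ddit3 (1.54) and Hyou1 (1.09), and 8 lower, among them Ero1l (-1.30) and P4hb (-0.73). Of the co-chaperones 13 of 28 were higher and 7 lower. Over all genes, 25.6% were higher and 25.2% lower at E13.5. The treatments moved few of them. Bag3, the partner of Hspb8, was lower with 4-OHT (-0.40, edgeR adjusted p = 0.048), as 1 of 28 co-chaperones called (5.5% of all genes). Ero1l was lower with Dox in tetO-Msi1 cells (-0.56, edgeR adjusted p = 0.015), as 1 of 30 ER genes called (3.6% of all genes).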
